A study of Mus musculus with 12 samples.

Results

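Untreated Faf2 knockout cells (KO NO) were compared with untreated wild-type cells (WT NO). The comparison rests on 6 of the 12 libraries of the series, 3 KO NO and 3 WT NO, chosen by genotype and treatment as labelled, with 15254 genes tested of 57010 in the table. The cells were NE-4C, a mouse neural progenitor line taken from early embryonic brain and immortalized by loss of p53, a feature that both groups share. In KO NO cells exon 4 of Faf2 had been cut out with a pair of CRISPR guides. WT NO cells were the unedited line. Both were grown in serum-containing medium without retinoic acid (RA) and collected without perturbation (NO, not induced), with 3 independent passages as replicates of each. The other 6 libraries came from the same lines after RA (1 µM for 24 h, collected on day 3) and were not part of the fit. The knockout is 1 line grown from a picked colony and the wild type is 1 line. Genotype and clone therefore cannot be told apart, and p-values measure the spread between passages of these lines.

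FAF2 (also called UBXD8) sits in the membrane of the endoplasmic reticulum (ER) and of lipid droplets. It is an adaptor that brings the p97/VCP ATPase to misfolded proteins on their way out of the ER, the pathway known as ER-associated degradation (ERAD). When misfolded proteins build up, the sensors PERK, ATF6 and IRE1 start the unfolded protein response (UPR). PERK slows translation and raises the factor ATF4, whose targets include amino acid transporters and the factors DDIT3 (CHOP) and TRIB3. ATF6 and the IRE1 product XBP1 raise ER chaperones and ERAD components. The comparison asks what the loss of Faf2 changes in the transcriptome of progenitors that have not been induced to differentiate.

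The libraries held between 25189054 and 30738717 counts, and mitochondrial genes took 9.102% to 13.57% of them. Levels are given in CPM, which puts every library on the same total after TMM scaling, and 3 counts, the floor used here, are 0.09526 to 0.1233 CPM. One library stood apart from its group. The median gene of WT NO replicate 3 lay 0.4575 and 0.4506 log2 units from WT NO replicates 1 and 2, which lay 0.2023 from each other. Pairs of KO NO libraries lay 0.2067 to 0.2345 apart, and pairs between the genotypes 0.3739 to 0.4817. In WT NO replicate 3 the imprinted gene Mest stood at 5.0 CPM against 104 and 203 in the other WT NO libraries. Lefty1, which encodes an inhibitor of Nodal, stood at 147 CPM there against 9.5 and 5.67. For the gene lists, counts are given below with all 6 libraries and, for many of the lists, without this library. Where the second count is left out, the list may also have changed. Over all tested genes 2.66% were called higher and 2.05% lower, at an adjusted p under 0.05 (edgeR). Without this library the shares were 9.17% and 8.61%. A count near these shares is no result about its list.

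**Figure D1:**
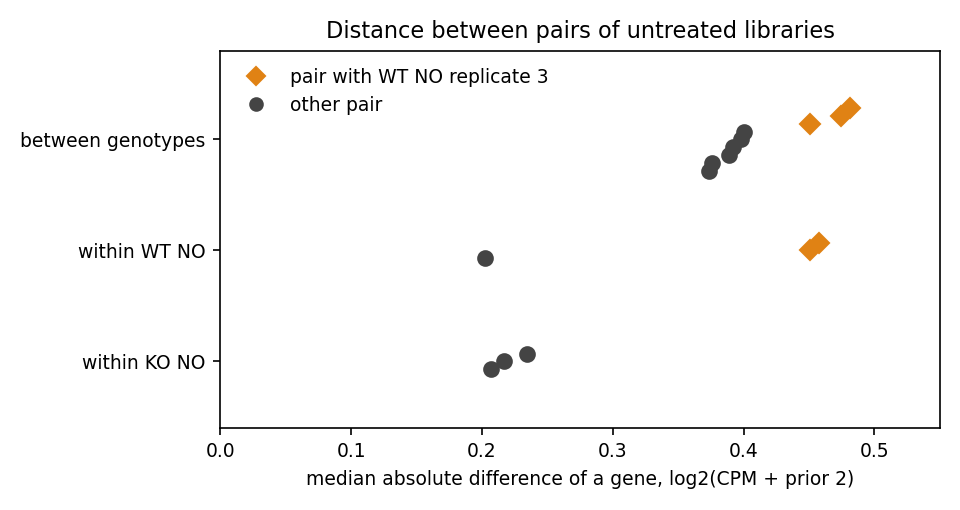
Distance between each pair of the 6 untreated libraries, as the median absolute difference of a gene in log2 CPM (with a prior count of 2). Each point is 1 pair, and diamonds are pairs that include WT NO replicate 3. Pairs within KO NO and the pair of WT NO replicates 1 and 2 sit between 0.2023 and 0.2345, and pairs within WT NO that include replicate 3 sit as far apart as pairs between the genotypes.

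Both groups carried progenitor transcripts. The summed level of 9 neural progenitor markers (among them Otx2, Nes, Sox2, Pax6, Cdh2 and Msi1) was 337 to 391 CPM in KO NO and 347 to 432 CPM in WT NO. Otx2 made up a large part of the sum, at 150, 184 and 183 CPM in KO NO and 183, 181 and 136 CPM in WT NO. Sox1 and Fabp7 reached at most 0.904 and 0.575 CPM in any library, and Pax6, Cdh2 and Msi1 were called lower in KO NO. The cells also held transcripts that the label does not name. Of 6 pluripotency markers, Pou5f1 alone stood at 1791, 1818 and 1535 CPM in KO NO and 2392, 2532 and 1297 CPM in WT NO. Utf1 stood at 421, 393 and 407 CPM in KO NO and 590, 514 and 199 CPM in WT NO, while Zfp42 was at or below the floor in all 6 libraries. None of the 6 was called. The summed level of 5 epithelial markers was 159 to 232 CPM in KO NO and 96.1 to 164 CPM in WT NO. Markers of endothelial cells (Cdh5 and Tie1 at the floor), of blood cells (Hbb-bs at the floor) and of the oligodendrocyte lineage (Olig2 at the floor) summed to at most 6.34 CPM in any library. In such bulk RNA, fewer cells of a type and less of a transcript per cell cannot be told apart.

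Faf2 itself (ENSMUSG00000025873, chr13:54769596-54813238, GRCm39, plus strand) stood at 23.9, 24.5 and 28.9 CPM in KO NO and 56.2, 43.2 and 40.6 CPM in WT NO. The groups did not overlap, and Faf2 mRNA fell by 0.86 ± 0.16 (SE) on the log2 scale (adjusted p = 0.0359, edgeR). The KO NO mean was thus 0.552 of the WT NO mean. A gene-level count of a 1-exon deletion can stay above 0, because the rest of the transcript may still be made. The removed exon is exon 4 of 11 in transcript Faf2-203, at chr13:54793058-54793134 (GRCm39, plus strand). It is shown because its 77 bases are not a multiple of 3 (2 bases remain), so that its loss shifts the reading frame.
Faf2 exon 4: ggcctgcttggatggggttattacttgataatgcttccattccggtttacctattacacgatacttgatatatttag
Without WT NO replicate 3 the log2 fold change of Faf2 was -0.96 (adjusted p = 0.00752). Leaving out any other single library ended the call (adjusted p from 0.0911 to 0.153 over the 5 fits). Faf2 lies on chromosome 13, whose median gene was also lower in KO NO (described further on), and with libraries scaled within each chromosome its log2 fold change was -0.49 (adjusted p = 0.0963). In the RA libraries of the same lines Faf2 stood at 36.1, 34.3 and 18.7 CPM in KO RA and 35.1, 37.9 and 49.1 CPM in WT RA, where the groups overlapped.

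Across all genes, 406 of 15254 were called higher in KO NO (2.66%) and 312 lower (2.05%), at a Benjamini-Hochberg adjusted p under 0.05 and any fold change. The higher genes moved further. Their median log2 fold change was 1.99, and 203 of them differed by 4-fold or more, whereas the lower genes had a median of -1.05 and 68 at 4-fold or more. Many of the higher genes were almost silent in the wild type. In 91 of the 406 no WT NO library had more than 3 counts, and in 132 the WT NO mean was 10 CPM or more. Of the 312 lower genes, 11 were at the floor in KO NO and 206 had a WT NO mean of 10 CPM or more. Protein-coding genes made up 379 of the higher and 286 of the lower calls, and lncRNAs 11 and 17. No called gene had overlapping groups, whereas 2606 and 2284 of all tested genes had groups apart in the higher and lower direction.

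The number of calls rested on the libraries. Without WT NO replicate 3, 1453 genes were called higher (9.17% of 15841) and 1364 lower (8.61%), among them 403 and 312 of the calls above. Without KO NO replicate 1, 2 or 3 the counts were 20, 20 and 22 higher and 1, 2 and 1 lower. Without WT NO replicate 1 or 2 they were 89 and 85 higher and 22 and 28 lower. No gene called in the 6 libraries changed sign in any of these fits. Since the groups of every called gene lay apart, a change of sign was hardly possible. In fits without any 1 of the other 5 libraries no gene list examined had more than 2 calls in a direction, except the germline list (5 to 10 higher), the list of epoxide, acyl-CoA and aldehyde enzymes (3 higher in each fit) and that of amino acid and creatine metabolism (up to 3 lower). Of the 137 called genes named in this text, 13 kept their call in every one of 16 alternative fits in which they were tested (4930447C04Rik, Acot1, Aldh1b1, Cdkn2a, Dnmt3l, Ephx2, Iho1, Mir9-3hg, Mpzl2, P2rx4, Platr10, Rbm46 and Stag3).

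**Figure D2:**
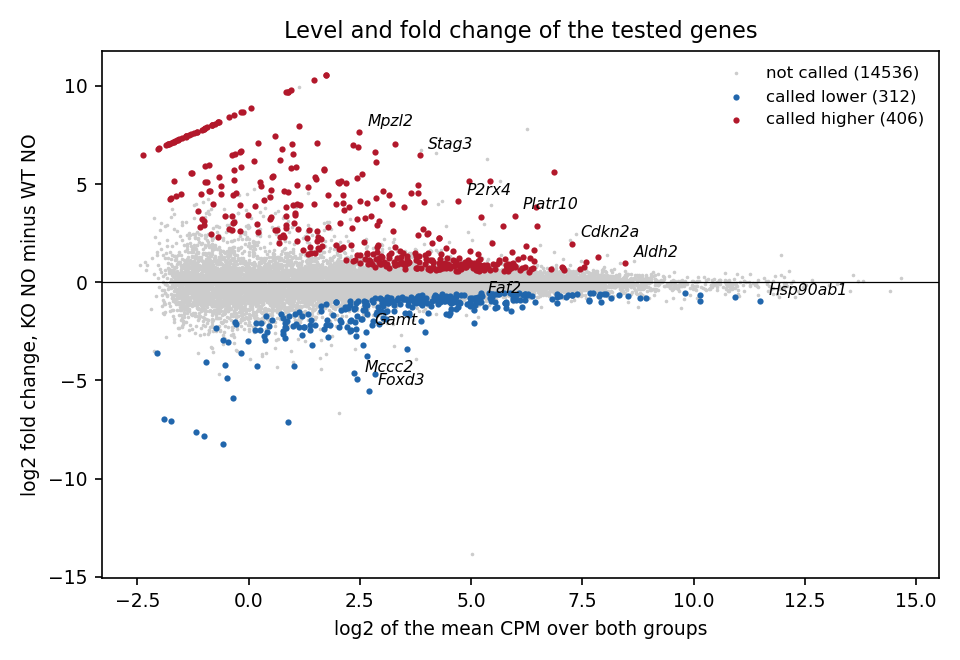
KO NO minus WT NO log2 fold change (vertical axis) of each tested gene against the log2 of its mean CPM over the groups (horizontal axis). Red and blue points are the 406 genes called higher and the 312 called lower, grey points were not called. Higher calls reach further from 0 than lower calls at low and moderate levels, and genes with no count in WT NO form the upper left edge.

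The 12 higher genes with the smallest adjusted p were Mir9-3hg, P2rx4, Stag3, Dnmt3l, Platr10, Acot1, Aldh1b1, Fbxo15, Iho1, Mpzl2, 4930447C04Rik and Rbm46. The first of them, the lncRNA Mir9-3hg (ENSMUSG00000097023, chr7:79146444-79184154, plus strand), is the host gene of the neural microRNA miR-9. It stood at 15.6, 12.5 and 14.7 CPM in KO NO and 0.198, 0.205 and 0.207 CPM in WT NO. The groups lay 70.02-fold apart (log2 fold change 6.10 ± 0.23 SE, adjusted p = 0.000236). Polyadenylated libraries do not measure the mature microRNA. The arms encoded there are shown because they are what this transcript is known for, with the seed (bases 2 to 8) in capitals (RefSeq, GRCm38.p6).
mmu-miR-9-5p: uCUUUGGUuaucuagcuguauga
mmu-miR-9-3p: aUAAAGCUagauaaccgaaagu

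P2rx4, an ATP-gated ion channel, stood at 40.1, 54 and 55.2 CPM in KO NO and 3.13, 2.63 and 2.65 CPM in WT NO, 17.7-fold apart (log2 fold change 4.15 ± 0.19 SE, adjusted p = 0.000417). The lncRNA Platr10, named for its association with pluripotency, stood at 111, 119 and 116 CPM in KO NO and 13.3, 11.5 and 8.2 CPM in WT NO (log2 fold change 3.39 ± 0.19 SE, adjusted p = 0.00091). Fbxo15, an F-box gene known as a marker of embryonic stem cells, stood at 11.7, 10.5 and 11.2 and 0.99, 1.31 and 1.14 CPM (log2 fold change 3.28 ± 0.21 SE, adjusted p = 0.00102). All of these were chosen among genes whose groups did not overlap, so their separation is no further result. Mpzl2, an epithelial adhesion protein gene, had 11.9, 11.4 and 10.1 CPM in KO NO and no more than 3 counts in any WT NO library, a difference of at least 96.8-fold against the floor of 3 counts per library. The other leading genes belong to lists described below.

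Among the higher genes the most abundant were Aldh2, Ifitm1, Dars, Grsf1, Dpf2 and Cdkn2a. Cdkn2a, which encodes the cell cycle inhibitor p16INK4a and the p53 regulator p19ARF, stood at 269, 241 and 225 CPM in KO NO and 56.7, 55.3 and 76.9 CPM in WT NO (log2 fold change 1.96 ± 0.17 SE, adjusted p = 0.00433). The other five rose by 0.68 to 1.29 on the log2 scale. Some further genes with no or almost no counts in WT NO were chosen after their values were seen. Gpx7, an ER-resident peroxidase gene, had 0 counts in every WT NO library and 9.43, 5.52 and 5.14 CPM in KO NO, at least 58.2-fold higher (adjusted p = 0.00666). Penk, which encodes an opioid peptide precursor, was at least 26-fold higher, and Lgals3, a galectin gene, at least 33.2-fold higher.

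Of the 12 lower genes with the smallest adjusted p, 11 are reported here, namely Gamt, Mccc2, Rflnb, Pxdn, Raet1e, Foxd3, Rbmx, Epop, Cda, Igfbp4 and Kcng1. Gamt, which makes creatine, stood at 1.73, 2.14 and 1.68 CPM in KO NO and 12.4, 8.42 and 11.1 CPM in WT NO (log2 fold change -2.52 ± 0.23 SE, adjusted p = 0.00556). Mccc2, a subunit of the leucine-degrading enzyme methylcrotonoyl-CoA carboxylase, stood at 0.50, 0.402 and 0.127 CPM in KO NO and 13.1, 10.4 and 7.79 CPM in WT NO (log2 fold change -4.91 ± 0.47 SE, adjusted p = 0.00561). Its KO NO mean was 0.0329 of that in WT NO. Foxd3, a factor of neural crest and of early embryonic cells, stood at 0.40, 0.201 and 0.222 CPM in KO NO and 6.45, 10.6 and 21.5 CPM in WT NO (log2 fold change -5.53 ± 0.57 SE, adjusted p = 0.00685). The WT NO libraries of Foxd3 differed among themselves. Its groups lay apart, as the choice of genes required. Epop, which binds Polycomb complexes, stood at 78.2, 77.2 and 82.6 and 153, 169.5 and 170.3 CPM (log2 fold change -1.05 ± 0.11 SE, adjusted p = 0.00685). Reads of Rbmx may be split with its retrocopies, so its value (log2 fold change -1.15 ± 0.12 SE) is uncertain.

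The most abundant lower genes were Hsp90ab1, Rpl7, Tubb5, Gm47283, Hspd1 and Sfpq. Hsp90ab1, the constitutive cytosolic HSP90 chaperone gene, stood at 1908, 1882 and 2055 CPM in KO NO and 4309, 3955 and 3128 CPM in WT NO (log2 fold change -0.96 ± 0.15 SE, adjusted p = 0.0232). Hspd1, the mitochondrial HSP60 chaperone gene, stood at 729.6, 707 and 741 and 1045, 1138 and 998 CPM (log2 fold change -0.55 ± 0.12 SE, adjusted p = 0.0457). Hsp90ab1 and the tubulin gene Tubb5 lie on chromosome 17, whose median was also lower. Rpl7, Hsp90ab1 and Tubb5 have near copies in the genome, and their counts may be shared with them.

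**Figure D3:**
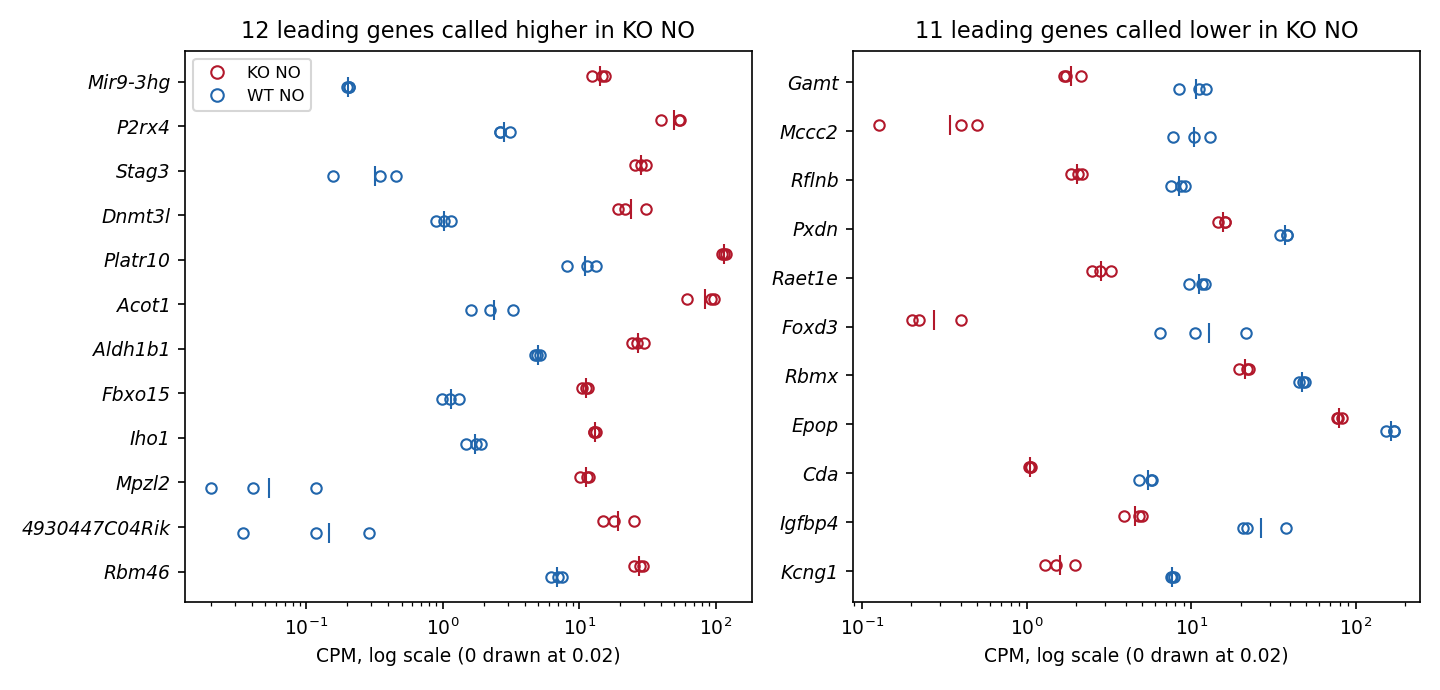
CPM (log scale, 0 drawn at 0.02) of the 12 higher (left) and 11 of the 12 lower (right) genes with the smallest adjusted p. Circles are single libraries, red for KO NO and blue for WT NO, and vertical ticks are group means. In every row the 3 KO NO and the 3 WT NO libraries lie apart, as the choice of genes required. The KO NO libraries of Foxd3 and Mccc2 lie below 1 CPM.

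Germline and meiosis genes had the largest median of the lists examined. Of 72 listed genes, 32 passed the filter on low counts and were tested. Among the 32, 15 rose and none fell, where 2.66% of all genes were called higher, and the median log2 fold change was 2.52 against 0.0009 for all tested genes. The filter admits genes that are expressed in 1 group only, so this median and these counts describe the genes that passed and not the list. Genes that passed through KO NO alone could only rise. With WT NO replicate 3 left out, 20 rose and none fell. Without KO NO replicate 1, 2 or 3 the list had 5 higher calls in each fit, without WT NO replicate 1 or 2 it had 10 and 9, and with at least 10 counts required in every library 5.

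The meiotic cohesin and synaptonemal complex genes, which hold sister and homologous chromosomes together in meiosis, gave 7 higher calls among 14 listed members. The remaining members comprised 6 that did not pass the filter on low counts and 1 that was tested and not called, and several of the 7 passed the filter through KO NO alone. Stag3, a subunit of meiotic cohesin, stood at 25.6, 28.6 and 30.9 CPM in KO NO and 0.158, 0.452 and 0.345 CPM in WT NO. That is a 89.1-fold difference between groups that lay far apart (log2 fold change 6.46 ± 0.31 SE, adjusted p = 0.000417). Its partner Rec8 had 6.83, 5.82 and 4.64 CPM in KO NO and at most 3 counts in any WT NO library, at least 50.1-fold higher (adjusted p = 0.00727). Rad21l and Smc1b, the other meiosis-specific cohesin subunits, had 0 counts in all WT NO libraries and means of 0.749 and 0.489 CPM in KO NO, differences of at least 6.51-fold and 4.25-fold. The synaptonemal complex gene 4930447C04Rik stood at 15, 25.1 and 17.9 CPM in KO NO and 0.119, 0.288 and 0.0345 CPM in WT NO (log2 fold change 7.05 ± 0.51 SE, adjusted p = 0.00202). Hormad2, which marks unsynapsed chromosome axes, stood at 11.5, 10.3 and 12.6 and 0.515, 0.123 and 0.103 CPM (log2 fold change 5.53 ± 0.52 SE, adjusted p = 0.00556). Syce2, a central element gene, was the only one of the 7 with a marked level in a wild-type library, at 83.7, 108 and 83.7 CPM in KO NO and 3.8, 9.08 and 25.2 CPM in WT NO. Sycp3 stood at 1.9, 1.84 and 0.984 CPM in KO NO and 0, 0.0822 and 0.31 CPM in WT NO and was not called (adjusted p = 0.0765; 0.0123 without WT NO replicate 3).

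Of 22 listed recombination genes 10 were tested and 4 rose, where 2.66% of all genes were called higher. Zcwpw1, which reads the histone marks left by PRDM9, was the most abundant of them at 146, 162 and 164 CPM in KO NO and 30.2, 19.8 and 14.6 CPM in WT NO (log2 fold change 2.87 ± 0.26 SE, adjusted p = 0.00556). Iho1 and Mei4, which are needed for meiotic DNA breaks, rose by 2.93 and 2.93 on the log2 scale, and Terb1, which tethers meiotic telomeres, was at least 4.97-fold higher. Of 8 genes of germ cell RNA regulation, Rbm46 alone was called, at 25.4, 28 and 29.5 CPM in KO NO and 7.05, 7.48 and 6.2 CPM in WT NO. The germ cell RNA helicase gene Ddx4 and the RNA-binding protein gene Dazl did not pass the filter, with at most 0.90 and 0.127 CPM in any KO NO library. Of the remaining 6 tested genes, Meiosin, Tuba3a and Dnmt3l rose. Meiosin, a factor that starts the meiotic programme, stood at 2.17, 2.91 and 3.56 CPM in KO NO and 0.158, 0 and 0.0345 CPM in WT NO (log2 fold change 5.40 ± 0.80 SE, adjusted p = 0.019). Counts of Tuba3a may be shared with its near copy Tuba3b. Psma8, a proteasome subunit of the testis that stood on another list, had 5.7, 3.05 and 4.29 CPM in KO NO and at most 3 counts in any WT NO library, at least 37.7-fold higher.

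Germline genes are known to be silenced in other cells by DNA methylation and by the repressor complex PRC1.6, whose MGA/MAX and E2F6 subunits bind the E-box CACGTG and the core TCCCGC. Among the promoters of the 15 germline genes that rose (250 bases before to 50 after the start, both strands), 5 held CACGTG and 6 held TCCCGC. Over all 15209 promoters with a sequence the shares were 9.37% and 30.5%, over the 403 of higher genes 8.93% and 28%, and over the 312 of lower genes 7.05% and 34.9%. The promoters of 3 of the germline genes are shown because they hold CACGTG close to the start. They are Dnmt3l at chr10:77885426-77885675 (plus strand), 4930447C04Rik at chr12:72964681-72964930 (minus strand) and Meiosin at chr7:18852294-18852543 (minus strand), all GRCm39. Each run is the 250 bases before the start, read 5′ to 3′ along the gene, and ends at the base before it. Capitals mark CACGTG and, in Meiosin, also GCGGGA, which is TCCCGC read on the other strand.
Dnmt3l: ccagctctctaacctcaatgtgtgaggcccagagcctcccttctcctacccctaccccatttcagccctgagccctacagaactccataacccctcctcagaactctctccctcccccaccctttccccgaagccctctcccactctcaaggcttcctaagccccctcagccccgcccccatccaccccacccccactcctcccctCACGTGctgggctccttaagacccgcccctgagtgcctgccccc
4930447C04Rik: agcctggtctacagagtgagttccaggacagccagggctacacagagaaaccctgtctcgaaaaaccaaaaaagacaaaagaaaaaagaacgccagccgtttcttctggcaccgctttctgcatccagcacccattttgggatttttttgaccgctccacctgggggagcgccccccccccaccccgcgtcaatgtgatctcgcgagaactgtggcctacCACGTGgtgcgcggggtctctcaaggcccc
Meiosin: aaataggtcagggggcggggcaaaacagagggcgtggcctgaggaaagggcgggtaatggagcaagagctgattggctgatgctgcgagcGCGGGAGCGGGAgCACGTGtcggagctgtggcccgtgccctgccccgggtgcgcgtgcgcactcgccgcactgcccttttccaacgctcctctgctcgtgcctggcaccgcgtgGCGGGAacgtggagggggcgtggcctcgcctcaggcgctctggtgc
In Dnmt3l the motif begins at base -44 before the start and in 4930447C04Rik at base -30. In Meiosin it begins at base -147, next to a pair of GCGGGA copies at bases -160 and -154, with a further copy at base -46. A match in letters is a description of the sequence and does not show that a factor binds there. The genes of these repressors were themselves measured. Of 12 tested PRC1.6 genes, E2f6 alone was called, and it was lower at 13.7, 10.3 and 10.7 CPM in KO NO and 21.6, 21.9 and 17.1 CPM in WT NO (log2 fold change -0.80 ± 0.18 SE, adjusted p = 0.0499). Of all genes 2.05% were called lower. Without WT NO replicate 3, 3 of the 12 fell and none rose (8.61% of all genes lower). Without any other single library no PRC1.6 gene was called. Mga stood at 77, 49.4 and 71.3 and 50.9, 56.5 and 67 CPM and was not called.

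DNA methylation genes moved in both directions, with 2 of 22 tested genes higher and 4 lower (4 and 5 without WT NO replicate 3). The shares of all genes were 2.66% higher and 2.05% lower, or 9.17% and 8.61% without that library. Dnmt3l, a partner of the de novo methyltransferases, stood at 30.9, 19.2 and 21.8 CPM in KO NO and 1.03, 1.15 and 0.896 CPM in WT NO (log2 fold change 4.55 ± 0.25 SE, adjusted p = 0.00091). The de novo methyltransferases themselves were lower. Dnmt3b stood at 38.4, 45.7 and 49.4 CPM in KO NO and 82.3, 84.2 and 83.7 CPM in WT NO (log2 fold change -0.91 ± 0.13 SE, adjusted p = 0.0164). Dnmt3a stood at 46.2, 38.3 and 39.8 and 73.4, 91.9 and 136 CPM (log2 fold change -1.27 ± 0.23 SE, adjusted p = 0.0303). Uhrf1, which brings the maintenance methyltransferase to newly copied DNA, stood at 34.3, 33.2 and 36.3 and 84.9, 80.4 and 61.8 CPM (log2 fold change -1.13 ± 0.15 SE, adjusted p = 0.0139), and it lies on chromosome 17. Its relative Uhrf2 rose by 0.67 on the log2 scale and the demethylating enzyme gene Tet3 fell by 1.15. The maintenance methyltransferase gene Dnmt1 stood at 104, 93.2 and 112 CPM in KO NO and 71.5, 88.5 and 90.1 CPM in WT NO and was not called (adjusted p = 0.233). Zfp57, a zinc finger gene that keeps imprints and that also lies on chromosome 17, fell by 0.94 on the log2 scale.

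Targets of PERK and ATF4 lay mostly above the wild type but few passed the edgeR test with all 6 libraries. Of 30 tested targets, 28 had a positive log2 fold change with a median of 0.45 (all genes: 0.0009). Of these 30, 4 rose and none fell, where 2.66% of all genes were called higher. Without WT NO replicate 3 the counts were 11 and 0 (9.17% of all genes higher). No member was called without any other single library, with all 12 libraries, with the replicate block or against a 1.5-fold change. DESeq2 called 16 members higher and limma-voom with quality weights 15, where they called 970 and 1824 genes higher in all. Cebpb, a stress-induced transcription factor gene, stood at 16.1, 13.6 and 16.5 CPM in KO NO and 8.55, 7.27 and 7.58 CPM in WT NO (log2 fold change 0.98 ± 0.16 SE, adjusted p = 0.0238). Vldlr, a lipoprotein receptor gene, stood at 15.7, 25.2 and 17 and 8.87, 6.82 and 7.48 CPM (log2 fold change 1.32 ± 0.22 SE, adjusted p = 0.0268). The transcription factor gene Atf5 and the glutamine transporter gene Slc1a5 rose by 0.74 and 1.18 on the log2 scale.

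The shift was not even across this list. Among 11 stress regulators the median log2 fold change was 0.928, and among 10 amino acid synthesis genes it was 0.163. Trib3, a pseudokinase that dampens the response, stood at 30.8, 23 and 32.5 CPM in KO NO and 10.6, 8.75 and 18.6 CPM in WT NO. Its groups did not overlap and it missed the threshold (log2 fold change 1.18 ± 0.30 SE, adjusted p = 0.0679), whereas without WT NO replicate 3 the adjusted p was 0.00405. Ddit3, which encodes CHOP, stood at 20.3, 12 and 14.2 and 5.5, 8.5 and 10.1 CPM (adjusted p = 0.102, or 0.0352 without WT NO replicate 3). Of the synthesis genes, Asns stood at 201, 202 and 215 CPM in KO NO and 231, 208 and 113 CPM in WT NO, where the groups overlapped in level (adjusted p = 0.744). Atf4 mRNA itself stood at 253, 301 and 279 and 286, 257 and 192 CPM and was not called, and its control is known to be largely translational. Of 20 aminoacyl-tRNA synthetase genes, which ATF4 also raises, Dars rose, from 145, 139 and 98.2 CPM in WT NO to 231, 289.7 and 249 CPM in KO NO (log2 fold change 1.01 ± 0.18 SE, adjusted p = 0.031).

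Among the UPR sensors and factors 1 of 17 was called, and 3 higher and 1 lower without WT NO replicate 3. Of all genes 2.66% were called higher and 2.05% lower, or 9.17% and 8.61% without that library. Eif2ak3, which encodes PERK, stood at 10.7, 12.3 and 10.9 CPM in KO NO and 6.89, 6.2 and 5.03 CPM in WT NO (log2 fold change 0.91 ± 0.18 SE, adjusted p = 0.0387). Atf6 stood at 14.2, 12.2 and 13.6 and 10.6, 9.0 and 6.24 CPM, groups that did not overlap but missed the threshold (adjusted p = 0.138). Ern1, which encodes IRE1, stood at 3.77, 2.85 and 3.59 and 3.72, 3.99 and 3.58 CPM and was not called.

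ER chaperone and folding genes did not shift as a list. Of 36 tested, none rose and 1 fell (1 and 2 without WT NO replicate 3), with a median log2 fold change of 0.0654. The shares of all genes were 2.66% higher and 2.05% lower, or 9.17% and 8.61% without that library. Hspa5, which encodes the chaperone BiP, stood at 558, 569 and 509 CPM in KO NO and 486, 538 and 378 CPM in WT NO (log2 fold change 0.22 ± 0.16 SE, adjusted p = 0.444). The groups of Hspa5 overlapped. Hsp90b1, which encodes GRP94, stood at 558, 728 and 616 and 460.0, 499.9 and 379 CPM (adjusted p = 0.114). The lower gene was Txndc5, a disulfide isomerase gene on chromosome 13, which fell by 0.71 on the log2 scale.

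Of 41 ERAD genes, the pathway in which FAF2 acts, 2 rose and none fell, a share close to the 2.66% of all genes that were called higher, with a median log2 fold change of 0.111. The counts without WT NO replicate 3 were 6 and 2 (9.17% and 8.61% of all genes), and without any other single library 0 and 0. Derl3, a derlin of the retrotranslocation channel, stood at 16.7, 10.1 and 8.83 CPM in KO NO and 3.44, 3.7 and 2.45 CPM in WT NO (log2 fold change 1.90 ± 0.30 SE, adjusted p = 0.0232). Erlin1, which helps to degrade ER membrane proteins, stood at 23.7, 23.7 and 23.9 and 12.7, 14.1 and 7.86 CPM (log2 fold change 1.04 ± 0.22 SE, adjusted p = 0.0466). In both genes the KO NO libraries were all above the WT NO libraries, as in every gene called higher. None of the 9 genes for p97 and its cofactors was called (median 0.214). Ubxn4, another p97 adaptor gene, stood at 89.3, 81.1 and 80.1 and 54.2, 65.8 and 38.4 CPM and missed the threshold (adjusted p = 0.099, or 0.0402 without WT NO replicate 3). Faf1, the paralogue of Faf2, stood at 49.97, 46 and 45.8 and 35.1, 32.8 and 36.4 CPM, also short of the threshold (adjusted p = 0.0684, or 0.0244 without that library).

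The promoter of Derl3 is shown because it holds a full ER stress element, CCAAT followed at a fixed spacing by CCACG, to which ATF6 and XBP1 are known to bind. It lies at chr10:75728988-75729237 (GRCm39, plus strand), and capitals mark the element, which reads on the opposite strand and begins at base -162 before the start.
Derl3: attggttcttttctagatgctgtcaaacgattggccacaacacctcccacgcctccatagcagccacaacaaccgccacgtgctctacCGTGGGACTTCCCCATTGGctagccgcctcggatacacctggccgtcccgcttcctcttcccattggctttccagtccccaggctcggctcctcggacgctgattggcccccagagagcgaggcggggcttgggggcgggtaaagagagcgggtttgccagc
This element was found in 18 of 15209 promoters (0.118%), among them 3 of 403 higher genes (Derl3 and the near copies Xlr3a and Xlr3b) and 1 of 312 lower genes (Zfp57). The ATF4 composite element TGATGNAA was found in 3.23% of the promoters of higher genes, 2.56% of lower genes and 2.62% of all. The UPR element TGACGTGG was found in 0.248%, 0.321% and 0.802%.

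Lipid genes, which matter here because FAF2 is also known from lipid droplets, gave few calls. Of 29 sterol synthesis and SREBP genes none rose or fell, with a median log2 fold change of 0.29. At an adjusted p just above the threshold were Npc2 (0.0583), Msmo1 (0.0584), Insig2 (0.0652) and Lss (0.0672), all with higher levels in every KO NO library. When WT NO replicate 3 was left out, 4 genes of this list rose and 1 fell. Of 26 lipid droplet and triglyceride genes none was called, and without that library 5 rose and 1 fell. Of all genes 2.66% were called higher and 2.05% lower, or 9.17% and 8.61% without that library. Plin2, a coat protein gene of lipid droplets, stood at 49.2, 32.6 and 36 CPM in KO NO and 16, 23 and 26.5 CPM in WT NO (adjusted p = 0.0847, or 0.0276 without WT NO replicate 3). Of 39 peroxisome genes, the hydrogen peroxide-degrading Cat and the phytanic acid oxidation gene Phyh fell, by 0.62 and 1.68 on the log2 scale. Without WT NO replicate 3, 6 of the 39 rose and 3 fell.

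A small set of lipid and aldehyde enzymes rose steeply. Of 33 listed genes for epoxide hydrolases, acyl-CoA thioesterases and aldehyde dehydrogenases, 21 passed the filter and were tested. Of the 21, 5 rose and 1 fell (10 and 1 without WT NO replicate 3). A gene that passed through KO NO alone could only rise, so these counts describe the genes that passed. The shares of all genes were 2.66% higher and 2.05% lower, or 9.17% and 8.61% without that library. Ephx2, the soluble epoxide hydrolase, stood at 31.6, 25 and 24.1 CPM in KO NO and 1.7, 1.19 and 0.62 CPM in WT NO (log2 fold change 4.53 ± 0.35 SE, adjusted p = 0.00262). Acot1, an acyl-CoA thioesterase, stood at 62.2, 91.8 and 97.8 and 1.62, 3.29 and 2.21 CPM (log2 fold change 5.15 ± 0.31 SE, adjusted p = 0.00102). Acot1 has near copies beside it on chromosome 12, and its reads may be split with them. Acot6, from the same cluster, had 0 counts in WT NO and less than 1 CPM in KO NO, and thus passed the filter through KO NO alone. Aldh1b1, a mitochondrial aldehyde dehydrogenase, stood at 30.1, 26.7 and 24.2 CPM in KO NO and 4.95, 4.72 and 5.2 CPM in WT NO (log2 fold change 2.44 ± 0.15 SE, adjusted p = 0.00102). The abundant mitochondrial enzyme gene Aldh2 rose by 0.98 ± 0.15 on the log2 scale. The gene of this list that fell was Acot7.

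Several glutathione transferase genes rose, with 6 of 36 genes of the list on glutathione, NRF2 and metallothioneins higher and none lower, where 2.66% of all genes were called higher. Without any single library other than WT NO replicate 3, 0 to 2 of the list were called higher. Gstp1 stood at 169, 165 and 155 CPM in KO NO and 9.9, 21.4 and 3.48 CPM in WT NO (log2 fold change 3.82 ± 0.58 SE, adjusted p = 0.0201). Gstm1 stood at 148, 92.6 and 113 and 41.7, 35.7 and 21.8 CPM (log2 fold change 1.83 ± 0.27 SE, adjusted p = 0.0197). Gstm5 stood at 12, 12.9 and 7.62 and 0, 0.123 and 0.138 CPM (log2 fold change 6.86 ± 0.59 SE, adjusted p = 0.00433). Gstp2 rose too, and the genes of the Gstm and Gstp clusters are similar enough to share reads. The other calls were Gstz1, an enzyme of tyrosine breakdown, and the metallothionein gene Mt2. The classical NRF2 targets Nqo1, Hmox1 and Gclm were not called, and in each the groups overlapped. Without WT NO replicate 3, 8 genes of the list rose and 5 fell, and Hmox1 and Gclm were among those with a lower level in KO NO (adjusted p = 0.0471 and 0.0379). Of 56 autophagy and lysosome genes, Mcoln1, a lysosomal calcium channel gene, and Ctsa, a cathepsin gene, rose and the proton pump gene Atp6v0a1 fell. The median of that list was 0.295, and without WT NO replicate 3 its calls were 13 higher and 1 lower (9.17% and 8.61% of all genes).

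**Figure D4:**
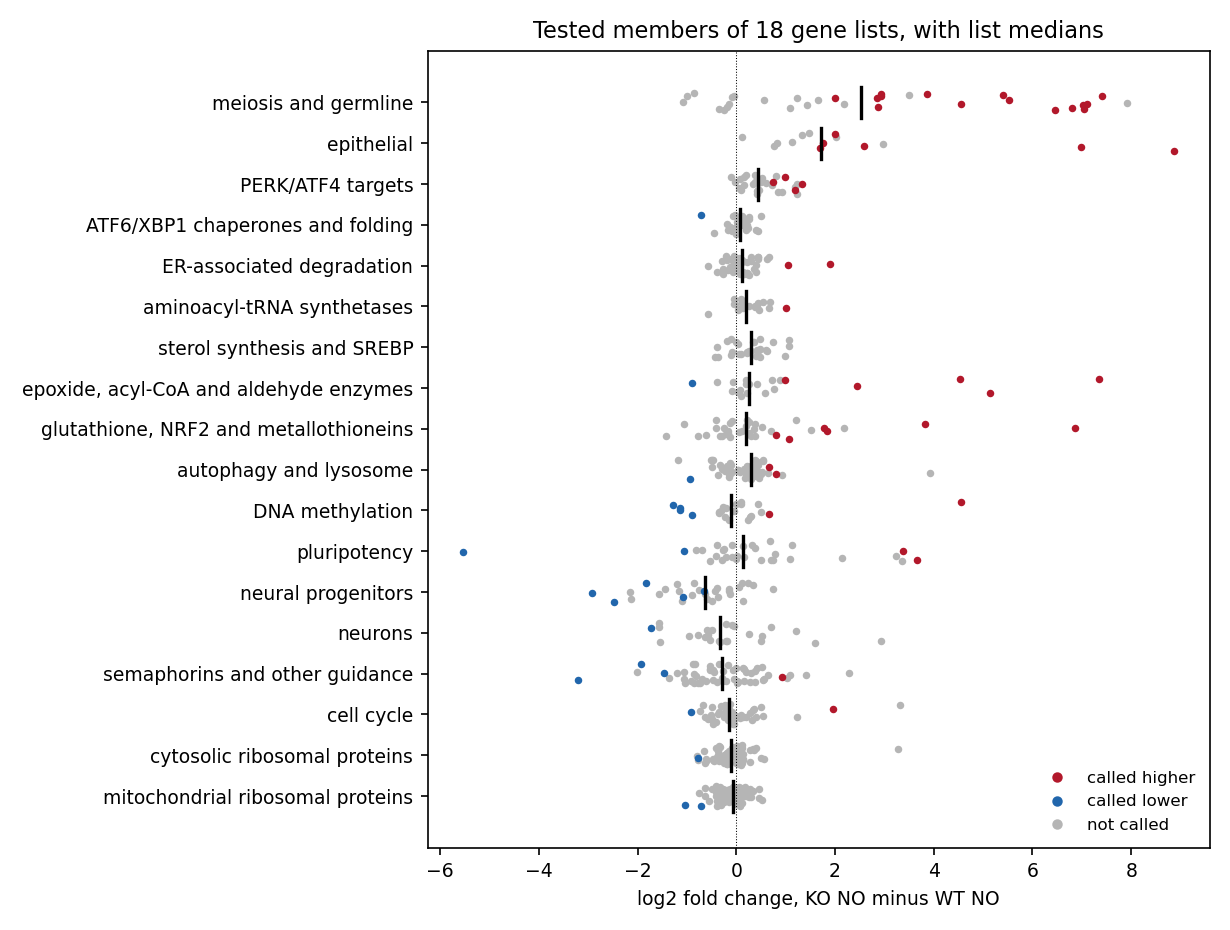
KO NO minus WT NO log2 fold change of the tested members of 18 gene lists, 1 point per gene. Red points were called higher, blue points lower, and black bars are list medians. Germline and epithelial genes lie furthest to the right, with medians of 2.52 and 1.72 that include genes which passed the filter through KO NO alone, neural progenitor genes lie to the left with a median of -0.641, and the ribosomal protein lists centre near 0.

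All 14 tested epithelial genes had a positive log2 fold change, and in 8 of them the groups did not overlap, with KO NO higher. Over all 15254 tested genes, 2606 had groups apart in that direction. Of the 14, 6 rose, where 2.66% of all genes were called higher. Without WT NO replicate 3, 10 of 15 rose (9.17% of all genes), without any other single library 0 or 1, and with all 12 libraries 1. The median of 1.72 and these counts describe the genes that passed the filter. Some of them passed it through KO NO alone and could only rise. Cdh1, which encodes E-cadherin, stood at 43.7, 21.4 and 34.7 CPM in KO NO and 10.1, 9.61 and 10.03 CPM in WT NO (log2 fold change 1.75 ± 0.26 SE, adjusted p = 0.0186). Cldn6, a tight junction claudin of early embryonic epithelia, stood at 25.3, 9.91 and 13.2 and 1.94, 2.96 and 3.14 CPM (log2 fold change 2.59 ± 0.39 SE, adjusted p = 0.0199). In both genes KO NO replicate 1 was the highest library and WT NO stayed low in all 3. Cldn7 and the keratin gene Krt19 had 0 counts in WT NO and were at least 17.9-fold and 4.78-fold higher. The epithelial transcription factor genes Grhl3 and Elf3 rose by 2.01 and 1.70 on the log2 scale. Epcam, a common marker of the same cells, stood at 131, 111 and 111 CPM in KO NO and 103, 82.5 and 139 CPM in WT NO, and its groups overlapped. Krt8 stood at 14.9, 8.23 and 7.02 and 1.58, 0.657 and 8.58 CPM and was not called (adjusted p = 0.333), whereas without WT NO replicate 3 the adjusted p was 0.00873. Cdh3, which encodes P-cadherin, rose by 1.90 ± 0.23 on the log2 scale.

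Neural progenitor genes lay below it. Of 50 listed genes, 30 were tested, with a median log2 fold change of -0.641; none rose and 5 fell, where 2.05% of all genes were called lower. In the fit without WT NO replicate 3 the counts were 1 and 10 (8.61% of all genes lower), and without any other single library 0 or 1 fell. Pax6, a factor of dorsal and hindbrain progenitors, stood at 0.90, 1.24 and 2.29 CPM in KO NO and 10.5, 9.78 and 4.65 CPM in WT NO (log2 fold change -2.48 ± 0.45 SE, adjusted p = 0.0318). Zic2, a zinc finger factor of the dorsal neural tube, stood at 2.63, 4.62 and 3.43 and 13.2, 9.61 and 15.3 CPM (log2 fold change -1.84 ± 0.28 SE, adjusted p = 0.0197). Msi1, an RNA-binding protein of neural stem cells, stood at 12.1, 18.4 and 20.04 and 38.6, 38.2 and 30.1 CPM (log2 fold change -1.08 ± 0.22 SE, adjusted p = 0.0386). Each of these had its lowest WT NO library above its highest KO NO library, as had every gene called lower. Cdh2, which encodes N-cadherin, and the ventral factor gene Nkx6-2 fell by 0.65 and 2.93 on the log2 scale. The general progenitor genes were not called. Sox2 stood at 72.3, 65.2 and 69.2 CPM in KO NO and 48.2, 49.2 and 26.7 CPM in WT NO (adjusted p = 0.112), above the wild type, and its adjusted p was 0.0183 without WT NO replicate 3. Nes stood at 39.8, 35.3 and 42.3 and 46.6, 50.7 and 68.3 CPM (adjusted p = 0.136).

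The summed level of 8 neuron markers was 131 to 137 CPM in KO NO and 99.1 to 164 CPM in WT NO. Of 25 tested neuronal genes, Elavl3, an early neuronal RNA-binding protein gene, fell, from 2.65, 4.11 and 3.9 CPM in WT NO to 1.03, 1.14 and 1.05 CPM in KO NO (adjusted p = 0.031). It was the only call of that list, where 2.05% of all genes were called lower. Without WT NO replicate 3, 3 of 26 rose and 2 fell (9.17% and 8.61% of all genes). Tubb3 stood at 20.8, 19.8 and 16.1 CPM in KO NO and 28.2, 24.5 and 35 CPM in WT NO and was not called (adjusted p = 0.0916). None of 11 proneural and Hes factor genes was called, and Neurog2 and Hes5 did not pass the filter. Among glial genes, Ptprz1, a receptor phosphatase of radial glia, rose by 1.84 ± 0.26 on the log2 scale. The genes for its secreted ligands pleiotrophin (Ptn) and midkine (Mdk) fell by 2.29 and 0.68. Mdk was the more abundant, at 257, 316 and 281 CPM in KO NO and 422, 481 and 469.5 CPM in WT NO (adjusted p = 0.0355).

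Of 10 tested GATA and endoderm genes, the chemokine receptor gene Cxcr4 rose and Gata4 fell (3 and 2 of 11 without WT NO replicate 3). Gata4, an endoderm and heart factor, stood at 1.07, 1.24 and 1.27 CPM in KO NO and 6.49, 5.75 and 4.21 CPM in WT NO (log2 fold change -2.20 ± 0.28 SE, adjusted p = 0.0135). Ccn2, a matricellular gene induced by YAP and by SRF, stood at 36, 20.4 and 30.4 and 2.49, 2.1 and 0.62 CPM (log2 fold change 4.07 ± 0.49 SE, adjusted p = 0.0114). It was the only one of 28 mesenchymal, smooth muscle and SRF/YAP genes that was called (4 higher and 3 lower without WT NO replicate 3). Of 31 pluripotency genes, Platr10 and Dppa3 rose and Foxd3 and Epop fell (7 and 7 genes without WT NO replicate 3). The shares of all genes were 2.66% higher and 2.05% lower, or 9.17% and 8.61% without that library. Dppa3, which protects the maternal genome from demethylation, stood at 17, 4.05 and 3.59 CPM in KO NO and 0.594, 0.904 and 0.448 CPM in WT NO (log2 fold change 3.66 ± 0.71 SE, adjusted p = 0.0364). Its KO NO libraries differed from each other, and without WT NO replicate 3 the call was lost (adjusted p = 0.0663). Nanog stood at 76, 95.2 and 80.1 and 62.4, 48.5 and 65.8 CPM, groups that did not overlap, and was not called (adjusted p = 0.108, or 0.0414 without WT NO replicate 3).

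Among 56 tested axon guidance genes 1 rose and 3 fell (2.66% and 2.05% of all genes), with a median log2 fold change of -0.28. All 3 that fell belong to the semaphorin system, in which plexins are the receptors. Plxnd1 stood at 1.0, 1.81 and 0.667 CPM in KO NO and 11.8, 7.27 and 13 CPM in WT NO (log2 fold change -3.20 ± 0.42 SE, adjusted p = 0.0139). The semaphorin genes Sema6c and Sema4c fell by 1.93 and 1.46 on the log2 scale, and among 26 semaphorin, plexin and neuropilin genes the median was -0.458. The ephrin receptor gene Epha2 rose, from 22.8, 17.1 and 24.8 CPM in WT NO to 46, 44.2 and 32.5 CPM in KO NO (adjusted p = 0.0466). In the fit without WT NO replicate 3, 5 of 58 guidance genes rose and 8 fell, where 9.17% and 8.61% of all genes did.

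In the Notch pathway 3 of 28 genes rose and 1 fell (5 and 2 without WT NO replicate 3). Beside the counts of this paragraph, 2.66% of all genes were called higher and 2.05% lower. Without that library these shares were 9.17% and 8.61%. Notch3, a receptor gene on chromosome 17, stood at 5.77, 8.0 and 8.6 CPM in KO NO and 19.9, 20.3 and 13.9 CPM in WT NO (log2 fold change -1.27 ± 0.22 SE, adjusted p = 0.0296). Numb, an inhibitor of Notch receptors, stood at 41, 43.3 and 42.7 and 20.1, 25.6 and 19.5 CPM (log2 fold change 0.96 ± 0.14 SE, adjusted p = 0.0197), and Adam10, the protease that releases the Notch ectodomain, rose by 0.76 ± 0.12. The imprinted non-canonical ligand gene Dlk1 stood at 22, 13.4 and 11.3 CPM in KO NO and 1.39, 0.534 and 0 CPM in WT NO (log2 fold change 4.62 ± 0.89 SE, adjusted p = 0.036). In the Wnt pathway 1 of 59 genes rose and 4 fell (4 and 9 of 60 without WT NO replicate 3). The secreted or membrane-bound inhibitor genes Apcdd1, Frzb and Sfrp2 fell by 0.80, 2.43 and 0.81 on the log2 scale and the planar polarity gene Celsr1 by 1.17, whereas the inhibitor gene Sfrp5 had 0 counts in WT NO and less than 1 CPM in KO NO. None of 16 Hedgehog genes was called. Smo, the signal transducer gene, stood at 27.2, 29.4 and 29 CPM in KO NO and 36.1, 38.7 and 38.1 CPM in WT NO, where the groups did not overlap (log2 fold change -0.40 ± 0.11 SE, adjusted p = 0.0864, or 0.0379 without WT NO replicate 3).

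Of 40 genes of the TGF-beta, Nodal and BMP pathways, the ligand Gdf1 and the activin inhibitor Fstl3 rose and the ligand Tgfb3 fell (7 and 4 of 41 genes without WT NO replicate 3). The shares of all genes were 2.66% higher and 2.05% lower, or 9.17% and 8.61% without that library. Gdf1 had 10.2, 5.66 and 4.22 CPM in KO NO and 0 counts in WT NO, at least 58-fold higher, and it shares a transcript with Cers1, so that reads of these genes cannot be separated with certainty. Tgfb3 stood at 0.90, 0.77 and 0.889 CPM in KO NO and 9.46, 6.41 and 2.21 CPM in WT NO (log2 fold change -2.81 ± 0.53 SE, adjusted p = 0.0338). Lefty1 stood at 47.9, 65.7 and 47.8 CPM in KO NO and 9.5, 5.67 and 147 CPM in WT NO. With all libraries it was not called, and without WT NO replicate 3 its log2 fold change was 2.81 (adjusted p = 0.00179). Of 29 FGF and ERK feedback genes, the immediate early gene Egr1 and the ETS factor gene Etv1 fell, by 1.58 and 0.99 on the log2 scale. Without WT NO replicate 3, 2 of the 29 rose and 6 fell.

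Among 33 genes of the IGF system and imprinted genes 7 rose and 3 fell (9 and 7 of 34 without WT NO replicate 3). Of all genes 2.66% were called higher and 2.05% lower, or 9.17% and 8.61% without that library. The neighbouring imprinted genes Peg10 and Sgce both rose. Peg10 stood at 140.4, 102 and 145 CPM in KO NO and 45.9, 52.7 and 25.6 CPM in WT NO (log2 fold change 1.64 ± 0.28 SE, adjusted p = 0.027). Sgce stood at 27.8, 33.3 and 34.8 and 5.34, 5.38 and 9.27 CPM (log2 fold change 2.26 ± 0.25 SE, adjusted p = 0.00822). Igf2, the growth factor gene, stood at 3.2, 2.71 and 2.7 and 8.95, 6.74 and 21.4 CPM (log2 fold change -2.11 ± 0.43 SE, adjusted p = 0.0414). Its binding protein gene Igfbp4 stood at 5.0, 3.92 and 4.79 and 20.7, 21.9 and 37.4 CPM (log2 fold change -2.54 ± 0.27 SE, adjusted p = 0.0069). WT NO replicate 3 was the highest library for both genes, and the other WT NO libraries also lay above KO NO, as in every gene called lower. Irs2, an insulin receptor substrate gene, rose, as did the receptor gene Igf2r, on chromosome 17, by 0.60 ± 0.13 on the log2 scale.

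Matrix and adhesion genes showed a few large differences. Spp1, which encodes osteopontin, stood at 68.2, 66.6 and 69.2 CPM in KO NO and 8.43, 9.61 and 2.52 CPM in WT NO (log2 fold change 3.32 ± 0.45 SE, adjusted p = 0.015). Loxl1, an elastin cross-linking enzyme gene, stood at 12.6, 10.6 and 12.8 and 0.91, 0.986 and 0.276 CPM (log2 fold change 4.06 ± 0.43 SE, adjusted p = 0.0069). With Lama4 they were the 3 of 62 matrix genes that rose, and the peroxidasin gene Pxdn and the integrin genes Itga9 and Itga3 fell. Of all genes 2.66% were called higher and 2.05% lower. In the fit without WT NO replicate 3 the counts were 14 and 8 of 64 (9.17% and 8.61% of all genes). None of 19 collagen genes was called (2 higher in that fit). Among retinoid genes Rdh10, which makes retinaldehyde, stood at 9.9, 10.6 and 11.4 CPM in KO NO and 37.1, 44.8 and 16.9 CPM in WT NO (log2 fold change -1.63 ± 0.34 SE, adjusted p = 0.0412). Rdh11, a retinol dehydrogenase gene of the ER, stood at 24, 35.2 and 28.7 and 11, 11.3 and 10.5 CPM (log2 fold change 1.42 ± 0.17 SE, adjusted p = 0.0114). These were the only calls among 18 retinoid genes of cells that had received no RA.

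Cell cycle and housekeeping lists had few calls with all 6 libraries. Of 46 cell cycle genes, Cdkn2a rose and the cyclin gene Ccnd3, on chromosome 17, fell, with a median log2 fold change of -0.145. The counts without WT NO replicate 3 were 4 and 12 of 47 (9.17% and 8.61% of all genes). Trp53 was near the floor in both groups, at 0.233, 0.268 and 0.508 CPM in KO NO and 1.03, 0.74 and 0.414 CPM in WT NO, and both lines carry the deletion of this gene. Of 20 genes of its list, the pro-apoptotic Bbc3 (PUMA) rose, from 5.38, 4.11 and 4.38 CPM in WT NO to 10.2, 10.4 and 13.3 CPM in KO NO (adjusted p = 0.0209). Of 82 cytosolic ribosomal protein genes 1 fell, with a median of -0.115, and of 78 mitochondrial ribosomal protein genes 2 fell, with a median of -0.062. With WT NO replicate 3 left out the mitochondrial list had 1 higher and 13 lower genes of 78, and the nuclear respiratory chain 2 and 11 of 92. The cytosolic list then had 1 higher and 7 lower of 82, close to the 8.61% of all genes called lower. The 13 genes of the mitochondrial genome had no calls and a median of -0.26 in the 6 libraries. Of 92 nuclear genes of the respiratory chain, Ndufa13, a complex I subunit, rose by 1.52 ± 0.16 and Uqcrfs1, on chromosome 13, fell by 0.60. The interferon-induced genes Bst2 and Ifitm1 rose, the only calls among 20 genes of interferon response and antigen presentation. Without WT NO replicate 3 that list had 3 higher and 3 lower calls.

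Lower genes were concentrated on chromosomes 13 and 17. The median log2 fold change of the 740 tested genes of chromosome 17 was -0.446, with 6 called higher and 70 lower (9.46%). On chromosome 13 the median of 596 genes was -0.34, with 4 higher and 31 lower (5.2%). Among the autosomes and X, chromosome 7 had the highest median, 0.203 over 1176 genes, with 49 higher and 12 lower, and the medians of the rest lay between -0.128 and 0.149. The shifts of chromosomes 13 and 17 ran along the whole chromosome. In consecutive blocks of up to 50 tested genes, all 15 blocks of chromosome 17 had a negative median (-0.615 to -0.279), as had all 12 blocks of chromosome 13 (-0.496 to -0.219). Shifts of like size were also found over parts of other chromosomes, whose medians lay between -0.128 and 0.0624. Of 277 blocks on the other autosomes and X, 17 had a median at or below the highest of chromosome 13, on chromosomes 1, 6, 11, 12 and 16. Some of them rested on WT NO replicate 3. Without it, block 6 of chromosome 1 went from -0.228 to 0.000139 and block 9 of chromosome 16 from -0.234 to -0.129. That library also departed from the other WT NO libraries over whole stretches. In blocks 8 to 14 of chromosome 1 its median gene lay -0.531 to -0.375 log2 units from their mean. On chromosome 1 the first 3 blocks had medians of -0.368, -0.491 and -0.51 (-0.231, -0.35 and -0.374 without WT NO replicate 3). Blocks 10 to 12 had 0.456, 0.426 and 0.562 with 7, 6 and 6 higher calls (0.266, 0.281 and 0.38 without that library). On chromosome 6 blocks 10, 12 and 13 had -0.467, -0.469 and -0.422 with 7, 6 and 1 lower calls (-0.425, -0.401 and -0.51 without WT NO replicate 3). Block 2 of chromosome 12 had -0.558 and block 7 had 0.451 (-0.573 and 0.378 without that library). Chromosomes 13 and 17 together held 8.76% of the tested genes and 101 of the 312 lower calls (32.4%), and off them 211 genes were lower (1.52%). The genes with the smallest p on chromosome 17 included Uhrf1, Metrn and Dpy30, and those on chromosome 13 Mccc2 and Idnk.

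The shift was present without the library that stood apart and in other libraries of the lines. Without WT NO replicate 3 the medians were -0.44 on chromosome 17 and -0.398 on chromosome 13. In the RA libraries of the same lines the median difference was -0.408 on chromosome 17 and -0.199 on chromosome 13, and -0.0173 on chromosome 7. When libraries were scaled within each chromosome, 6 genes were called lower on chromosome 17 and 4 on chromosome 13, of 220 lower and 357 higher in all. Hsp90ab1, Tubb5, Notch3, Ccnd3, Uhrf1 and Zfp57 lie on chromosome 17 and Faf2, Mccc2, Txndc5 and Uqcrfs1 on chromosome 13. The number of chromosome copies was not measured, and with 1 line per genotype it cannot be told apart from the effect of the deletion. The Y-linked gene Ddx3y stood at 0.867, 0.301 and 0.413 CPM in KO NO and 18.6, 18.9 and 3.72 CPM in WT NO (adjusted p = 0.0208), while Kdm5d, also on Y, stood at 9.7, 10.6 and 9.49 and 8.08, 7.15 and 1.72 CPM and was not called. In both Y genes WT NO replicate 3 was the lowest WT NO library.

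**Figure D5:**
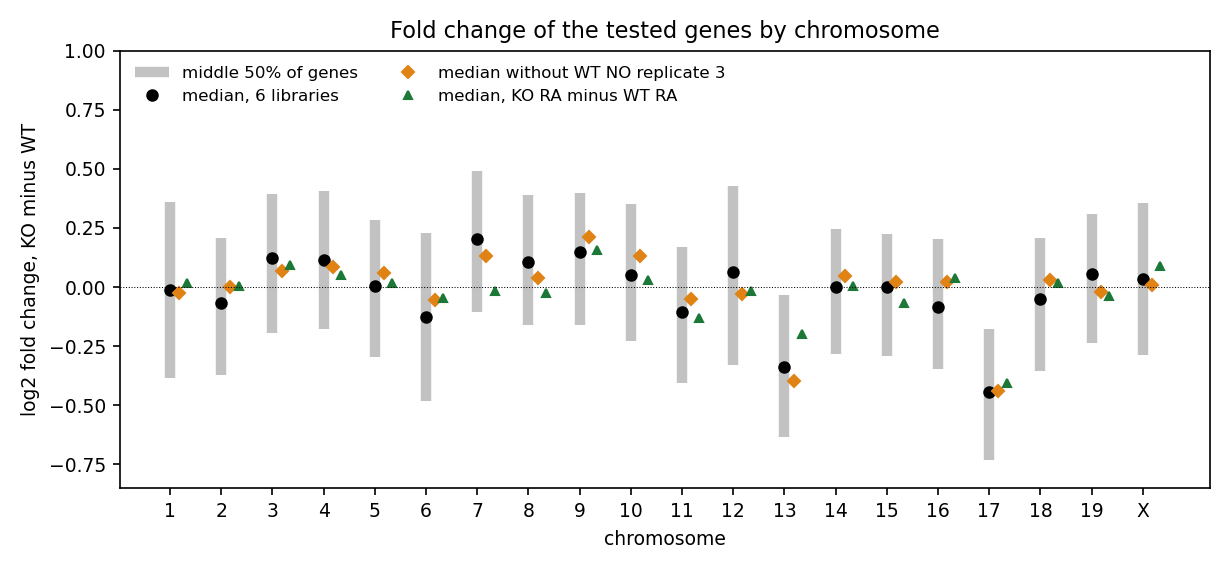
Log2 fold change of KO against WT by chromosome. Grey bars span the middle 50% of the tested genes and black points are their medians in the 6 untreated libraries. Orange diamonds are medians without WT NO replicate 3 and green triangles the median difference of KO RA and WT RA. Chromosomes 13 and 17 lie below 0 in all 3 series, and chromosome 7 lies above 0 in the untreated libraries.

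The RA libraries show which of the differences recur in other libraries of the same lines. They share the lines and their clone, and may share passages with the untreated libraries, and so are no independent knockout. Of the 406 genes higher in KO NO, 173 (42.6%) had all KO RA libraries above all WT RA libraries, where 9.56% of all tested genes had. Of the 312 lower genes, 131 (42%) had the groups apart in the same direction, against 11.4% of all. KO RA replicate 3 deviated from its group, and without it the shares were 64.3% of the higher genes (25.8% of all) and 54.5% of the lower genes (23.2% of all). Groups apart in the opposite direction were found for 10 of the higher and 8 of the lower genes with all RA libraries, and for 13 and 39 without KO RA replicate 3. Stag3 stood at 26.7, 23.9 and 9.81 CPM in KO RA and 0.144, 0.242 and 0.0955 CPM in WT RA. Ephx2 stood at 10.6, 13.5 and 3.57 and 0.817, 0.63 and 0.43 CPM. Both had all KO RA libraries above all WT RA libraries. Pax6 stood at 4.33, 1.84 and 2.78 CPM in KO RA and 11.8, 14.6 and 14.9 CPM in WT RA, with all KO RA libraries below. Derl3 stood at 10.3, 5.66 and 2.58 and 6.39, 4.66 and 4.2 CPM, and Cdh1 at 7.63, 15 and 2.38 and 7.69, 3.44 and 8.98 CPM. The groups of Derl3 and of Cdh1 overlapped after RA.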

How the data were processed

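Polyadenylated RNA of NE-4C cells was sequenced in paired-end mode. The authors aligned the reads with STAR, quantified genes with Salmon (nf-core/rnaseq, GRCm39) and deposited estimated counts per gene, scaled from TPM with a correction for transcript length, so that a count is not a number of fragments. These values are not normalized between libraries, and whether counting used strand is not given in the sources used here. Columns were assigned to samples by matching their names with the labels. The deposited table holds no comparison columns.

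Estimated counts were rounded. Genes were filtered with filterByExpr, libraries scaled by TMM, and the 3 KO NO and 3 WT NO libraries compared with the robust quasi-likelihood F test of edgeR 4.0.16 (R 4.3.3), with Benjamini-Hochberg adjustment over 15254 genes and a threshold of 0.05. SEs were taken from the log2 fold change and its F statistic. The study used DESeq2, which was tried here as an alternative (DESeq2 1.42.0), as was limma 3.58.1. The edgeR step was tested on simulated data. Library totals ranged from 25189054 to 30738717. The common dispersion was 0.0986 and the median SE 0.239 on the log2 scale. A fold change against a group without more than 3 counts in any library was computed against 3 counts per library as a lower bound. Such bounds cover counting error only.

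The genes named were Faf2, in each direction the 12 calls of smallest adjusted p whose groups did not overlap, the 6 most abundant calls in each direction, up to 4 members of each list with the smallest p together with its defining genes, and the 4 genes with the smallest p on outlying chromosomes. Not all of the genes that this rule names are described, and a few are not reported here. Further called list members, and Gpx7, Penk, Lgals3, Mest, Lefty1 and Krt8, were named after their values were seen. The gene lists and this comparison were chosen with earlier results of these data known. Gene positions came from the GRCm39 annotation, and promoters were read from 250 bases before to 50 after the start. RA libraries were only described. Python 3.11.15, pandas 2.3.3 and matplotlib 3.10.9 were used for tables and plots.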

Additional observations from a re-analysis of the deposited data

How the results depend on the processing

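The number of calls depended on the test and the libraries. Against 406 higher and 312 lower calls, DESeq2 gave 970 and 880, limma-voom with quality weights 1824 and 1564, DESeq2 size factors in edgeR 395 and 334, no filter beyond 1 count 312 and 218, at least 10 counts in every library 265 and 311, all 12 libraries 130 and 58, all but KO RA replicate 3 767 and 754, a test against a 1.5-fold change 130 and 32, and TMM within each chromosome 357 and 220. Leaving out 1 library gave 20 to 1453 higher and 1 to 1364 lower calls. The share of higher genes among the calls, 56.5%, became 46% with at least 10 counts, 69.1% with all 12 libraries and 80.2% against 1.5-fold. None of the 718 called genes changed sign in a fit that tested it. All 718 had groups apart and the fits share these libraries, so this outcome was nearly fixed in advance. Of the 137 called genes named above, 137 kept the call with DESeq2 and 54 with all 12 libraries.

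Calls among list members, 74 higher and 50 lower, became 159 and 121 with DESeq2, 233 and 196 with limma-voom, 31 and 15 with all 12 libraries, 123 and 106 without KO RA replicate 3, 31 and 11 against 1.5-fold, and 11 to 196 and 0 to 171 with 1 library left out. The log2 fold change of Faf2 was -0.87 with all 12 libraries (adjusted p = 0.179), -0.86 against 1.5-fold (0.371) and -0.49 with TMM within each chromosome (0.0963), none of them called, and -0.96 to -0.70 with 1 library left out. The chromosome 17 median, -0.45, was -0.47 with all 12 libraries and -0.46 to -0.42 with 1 library left out, and that of chromosome 13 moved by less than the spread between libraries. Chromosome medians were not computed for TMM within each chromosome or against 1.5-fold. The alternatives for chromosome 17 and the RA comparison without KO RA replicate 3 (261 in place of 173 higher genes apart) were chosen after seeing the data.

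Of the genes named, 5 that were not called changed sign. The log2 fold change of Asns was -0.04 with limma-voom and -0.11 to 0.36 with 1 library left out, and that of Pou5f1 0.16 with TMM within each chromosome. With 1 library left out Epcam ranged from -0.04 to 0.32 and Hmox1 from -0.71 to 0.18. Lefty1 was at 0.02 without a filter, 2.54 with limma-voom, 1.58 with the replicate block, and -0.53 to 2.81 with 1 library left out, the highest without WT NO replicate 3. The cause of these changes was not tested.

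The replicate numbers did not pair the samples. Deviations of same-numbered KO NO and WT NO libraries correlated at 0.0371, -0.0253 and -0.0635, and not every library correlated best with its own number. With the replicate block 32 genes were higher and 6 lower, 15 and 3 of them on the lists, the log2 fold change of Faf2 was -0.85 (adjusted p = 0.131) and the chromosome 17 median -0.42. At these depths 3 counts are 0.09526 to 0.1233 CPM, and smaller differences between low genes were not detectable.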
